A study of Mus musculus with 2931 samples.

Results

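Capillary endothelial cells labelled Car4+ capillaries were compared with capillary endothelial cells labelled Early Car4- capillaries in newborn mouse lung. The cells were taken by their deposited subtype label and by the age and treatment in their name: the 2 labels, the ages P1 and P7 (postnatal day 1 and day 7) and normal air. This gave 698 of the 2931 cells of the series, 142 labelled Car4+ and 556 labelled Early Car4-. All were single cells of distal lung, sorted into plates and sequenced as Tn5-cut cDNA libraries, and the series as a whole also covers an embryonic age, P21 and hyperoxia.

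The cells came from 4 mouse names, and the mouse was the replicate. The female P1 mouse (FP1) gave 59 Car4+ and 160 Early cells, and the male P1 mouse (MP1) gave 17 and 120. The female P7 mouse (FP7) gave 42 and 162, and the male P7 mouse (MP7) gave 24 and 114. The mice of an age thus differed in sex, and sex and mouse cannot be told apart. No strain, allele or transgene is given in the labels, and whether a mouse name is 1 animal or a pool is not stated. A further pair of P7 mice kept in hyperoxia (FP7hyperoxia with 19 Car4+ and 151 Early cells, MP7hyperoxia with 37 and 126) was set beside the comparison and entered no test.

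Alveolar capillaries hold intermingled endothelial cells of different kinds. Cells marked by carbonic anhydrase 4, also called aerocytes, are large, lie against the thin epithelium where gas is exchanged, and are known to need epithelial VEGF. General capillary cells are smaller, carry the lipase anchor Gpihbp1 and the apelin receptor, and act as progenitors in growth and repair. The known signals between them include apelin, made by aerocytes, and its receptor on general capillary cells.

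The labels may have been made by clustering the same counts that are compared here. A p-value below therefore measures how evenly a gene differed over the 4 mice, and is no evidence that the 2 classes exist. The genes that gave the classes their names are a check of the labels and not a finding. Of the 698 cells, 674 came through a CD31 gate and 24 through other gates. Within each mouse the CD31-gate cells of both classes carried the same DC code in their names (DC23 in FP1, DC35 in MP1, DC21 in FP7 and DC30 in MP7). What this code stands for is not stated in the names, and for these cells it cannot be told apart from the mouse. Some cells of other gates carried another code, among them 6 Car4+ cells of MP7 with DC35.

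Reads were summed over the cells of a class in each mouse, and these 8 sums held between 7733119 and 161045882 reads. Single cells held between 45579 and 2469914 reads. Levels are CPM, read counts scaled to the total of a sum and to the TMM factors of edgeR, so they can be compared between sums but not between genes, since they are not per gene length. Levels of single cells are CPM of the total of the cell, without these factors. The median log2 difference of Car4+ minus Early, over all 11833 genes tested, was -0.33. It was -0.06 with equal numbers of cells per class, -0.11 without the mouse term and -0.58 without a filter on low counts. List medians below are to be read against -0.33.

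In the fit with a term for each mouse, 143 of 11833 genes differed between the classes (1.21%, edgeR quasi-likelihood test, Benjamini-Hochberg adjusted p under 0.05). Of these, 98 were higher in Car4+ cells (0.828% of genes tested) and 45 were lower (0.38%). As a description of the genes so chosen, all 143 lay on the same side in 4 of 4 mice, and the sums of the classes did not overlap in 126 of them. Over all genes tested, 1245 (10.5%) did not overlap. The majority lay on the lower side with DESeq2 (474 higher and 953 lower), with limma (267 and 566) and in the P7 mice alone (56 and 74). It stayed on the higher side, by a smaller margin, in cells thinned to 50000 reads (278 and 237) and with no replicate block (95 and 83), and the P1 mice alone gave 73 and 39. The number rested on the mice: 48 genes were called without FP1, 88 without MP1, 16 without FP7 and 70 without MP7. Equal numbers of cells per class, from a single random draw of Early cells, left 36 calls.

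The markers of both classes followed the labels. Of 11 listed aerocyte markers, 9 were called higher in Car4+ cells and 0 lower, with a median log2 difference of 4.01. Of 11 listed general capillary markers, 8 were called lower and 0 higher, with a median of -4.81. Counts of called genes in these and the later lists are to be read beside 0.828% of all genes called higher and 0.38% called lower. Counts of genes higher or lower in 4 of 4 mice are to be read beside 9.48% and 17.1% of all genes tested. The lists were chosen with earlier results of these data known, so they give the labels no independent support. Car4, the membrane-bound carbonic anhydrase of the class name, stood at 4064 CPM (FP1), 3963 (MP1), 5178 (FP7) and 12600 (MP7) in Car4+ cells. In Early cells it stood at 176, 485, 131 and 364 CPM. The highest Early sum lay far below the lowest Car4+ sum, and the Early sums were low in Car4 rather than free of it. The log2 difference was 4.52 (SE 0.42, edgeR adjusted p = 0.00738).

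Single cells showed how far the label and the genes coincided. After each cell was thinned to 50000 reads, which left out 4 cells, 138 of 142 Car4+ cells (97.2%) had a Car4 read, and so did 143 of 552 Early cells (25.9%). The share of Early cells with a Car4 read was 15.7% in FP1 and 18.52% in FP7, and 35% in MP1 and 41.4% in MP7. Exact binomial 95% intervals, which cover counting error only, ran from 10.4% to 22.3% in FP1 and from 32.2% to 51.2% in MP7. Both male mice were thus above both female mice, at both ages. A Gpihbp1 read was found in 95.5% of Early cells and in 38.7% of Car4+ cells. Cells with reads of both genes made up 38% of Car4+ cells and 24.8% of Early cells. The median Car4 level of a cell was 4408 CPM among Car4+ cells and 0 among Early cells. The median Gpihbp1 level was 0 among Car4+ cells and 1624 CPM among Early cells.

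**Figure D1:**
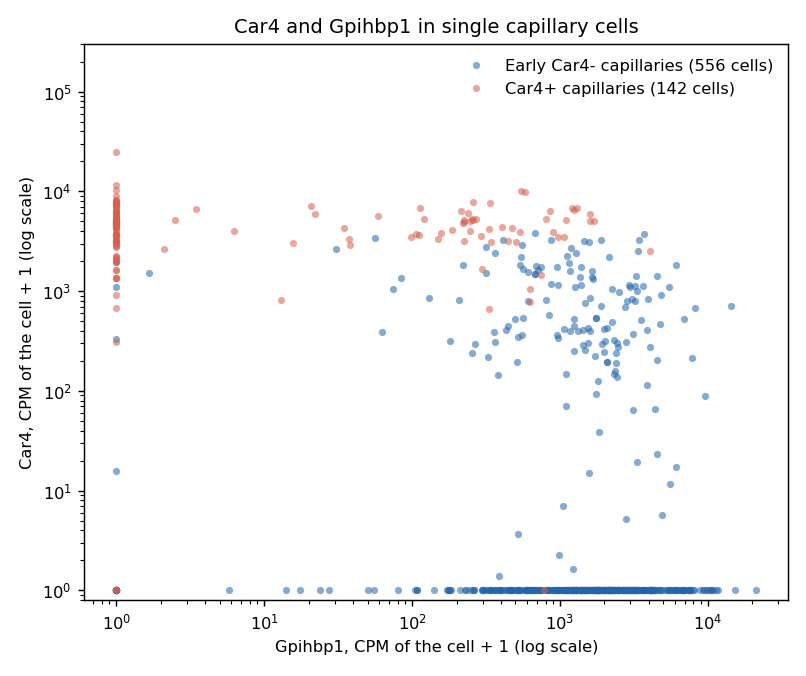
Car4 (vertical axis) against Gpihbp1 (horizontal axis) in single cells, each as CPM of the cell plus 1 on log scales; every point is 1 of 142 Car4+ or 556 Early Car4- cells of the 4 mice in normal air. Car4+ cells lie along the top, and the Early cells that hold Car4 reads lie mostly below them, at high Gpihbp1.

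Of the 11 aerocyte genes, 10 were higher in 4 of 4 mice and Rprml in 3. Ednrb, the endothelin B receptor, reached 2689, 3902, 2590 and 4068 CPM (in the order FP1, MP1, FP7, MP7) in Car4+ cells and 192, 452, 83.5 and 188 CPM in Early cells. Its log2 difference was 4.08 (SE 0.34, edgeR adjusted p = 0.00738). The T-box transcription factor gene Tbx2 stood at 667, 767, 481 and 674 CPM in Car4+ cells and at 32.1, 97.4, 13.96 and 55.6 CPM in Early cells. The membrane protein genes Emp2 and Pmp22 had log2 differences of 3.47 (SE 0.32) and 3.18 (SE 0.24), and Prx, which codes for periaxin, one of 1.76 (SE 0.21). The groups of none of these genes overlapped. Fibin stood at 165, 73.2, 903 and 833 CPM in Car4+ cells and at 0, 4.62, 3.58 and 25.6 CPM in Early cells, but did not pass (edgeR adjusted p = 0.0997). Rprml, with 370 and 40 reads over the classes, did not pass either (edgeR adjusted p = 0.512).

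Among the general capillary genes, Gpihbp1, which anchors lipoprotein lipase on the capillary wall, stood at 201, 336, 159 and 449 CPM in Car4+ cells. In Early cells it stood at 1679, 3345, 1248 and 1712 CPM, with no overlap (log2 difference -2.83, SE 0.28, edgeR adjusted p = 0.00847). Cd93, a receptor of the endothelial surface, was lower by a log2 difference of -2.57 (SE 0.39, edgeR adjusted p = 0.0287). Plvap, which forms the diaphragms of fenestrae and caveolae, stood at 16.7, 137, 5.23 and 0 CPM in Car4+ cells and at 1339, 842, 1049 and 968 CPM in Early cells. Its groups lay far apart, yet it did not pass (edgeR adjusted p = 0.0893), and it passed in the P1 mice alone and in the P7 mice alone. Of the Plvap reads of Car4+ cells, 41.3% lay in 1 cell. Hpgd, the enzyme that breaks down prostaglandins, was not called (510, 359, 2520 and 1324 CPM against 700, 282, 2687 and 2613 CPM, edgeR adjusted p = 0.696). In both classes both P7 mice stood above both P1 mice, and the groups overlapped.

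Of 10 pan-endothelial genes 6 were higher in Car4+ cells in 4 of 4 mice and 1 was lower in 4 of 4. An unadjusted edgeR p under 0.05 was found for 6 of them, beside 1577 of all 11833 genes tested. Only Cldn5, a tight junction gene, was called, higher in Car4+ cells at 6414, 9243, 5929 and 5876 CPM against 2880, 3785, 2256 and 2849 CPM. The median log2 difference of these 10 genes was 0.51. Pecam1, which codes for the CD31 used in the sort, stood at 1387, 2082, 1437 and 2303 CPM against 1334, 1284, 1544 and 852 CPM (edgeR adjusted p = 0.513). Egfl7 and Ramp2 were higher in 4 of 4 mice without passing (edgeR adjusted p = 0.262 and 0.223); 9.48% of all genes tested were higher in 4 of 4 mice, and 17.1% were lower.

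The ligand and receptor genes of several axes lay on opposite sides. Apln, the apelin gene, stood at 424, 449, 653 and 611 CPM in Car4+ cells and at 39.3, 28.1, 69.3 and 68.1 CPM in Early cells (log2 difference 3.46, SE 0.27, edgeR adjusted p = 0.00733). Aplnr, its receptor, stood at 11.8, 62.1, 7.62 and 4.70 CPM in Car4+ cells and at 267, 238, 682 and 290 CPM in Early cells (log2 difference -4.81, SE 0.84, edgeR adjusted p = 0.0475). Neither gene overlapped between the classes. An Apln read was found in 76.8% of Car4+ and 16.7% of Early cells after thinning, and an Aplnr read in 7.75% and 74.6%. Both genes had reads in 10 of 142 Car4+ cells and in 76 of 552 Early cells.

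Kitl, the gene of the Kit ligand, stood at 1482, 662, 1368 and 1535 CPM in Car4+ cells and at 291, 197, 197 and 220 CPM in Early cells. The log2 difference was 2.43 (SE 0.25, edgeR adjusted p = 0.00938). The receptor gene Kit lay the other way, at 14.4, 26.3, 1.49 and 11.8 CPM against 366, 280, 678 and 341 CPM (log2 difference -5.20, SE 0.90, edgeR adjusted p = 0.0477). Kit had a read in 12.7% of Car4+ and 93.5% of Early cells, and 3 cells held 50% of its reads in Car4+ cells. MP1 held the lowest Kitl and the highest Kit level among the Car4+ sums. Within the angiopoietin and Kit list, 1 of 6 tested genes was called higher and 3 lower, with a median log2 difference of -2.48. The angiopoietin receptor gene Tek (16.1, 82.7, 34.1 and 54.0 CPM against 604, 497, 463 and 371 CPM) and Ptprb, which codes for the VE-PTP phosphatase that restrains it, were the other genes called lower. Ptprb stood at 67.4, 12.6, 25.02 and 41.6 CPM in Car4+ cells and at 1078, 960, 676 and 844 CPM in Early cells. The related receptor gene Tie1 (edgeR adjusted p = 0.326) and the ligand gene Angpt2 (edgeR adjusted p = 0.564) were not called.

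Edn1, the endothelin 1 gene, was the counterpart of Ednrb. It had 48 reads in all 142 Car4+ cells, of which 95.8% lay in 1 cell, and 33897 reads in the 556 Early cells. The Early sums held 46.3, 93.8, 72.7 and 224 CPM, and the Car4+ sums 1.30 CPM in FP1 and 0 in the others. Edn1 passed narrowly (edgeR adjusted p = 0.0483) and lost its call without MP1, FP7 or MP7. Of 18 tested endothelin and vasomotor genes, Ednrb was the gene called higher and Edn1 the gene called lower, with a median log2 difference of -0.73. Ece1, the enzyme that matures endothelin, and Calcrl, the adrenomedullin receptor subunit, were lower in 4 of 4 mice without passing (edgeR adjusted p = 0.321 and 0.485).

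In the VEGF list, 2 of 9 tested genes were called higher and 0 lower, with a median log2 difference of -0.33. Kdr, the main VEGF receptor gene, stood at 2489, 1422, 2591 and 4063 CPM in Car4+ cells and at 467, 383, 410 and 428 CPM in Early cells (log2 difference 2.55, SE 0.26, edgeR adjusted p = 0.00938). Its coreceptor gene Nrp1 stood at 1678, 892, 2190 and 2805 CPM against 472, 449, 646 and 447 CPM (log2 difference 1.81, SE 0.29, edgeR adjusted p = 0.0339). Flt1, the decoy receptor gene, and Flt4, the VEGF-C receptor gene, were higher in 4 of 4 mice without passing (edgeR adjusted p = 0.156 and 0.0548). The ligand gene Vegfa was low in both classes, between 0 and 2.33 CPM in Car4+ cells and between 15.6 and 24.2 CPM in Early cells (edgeR adjusted p = 0.147). Vegfc stood at 13.1, 25.3, 0 and 0.17 CPM against 98.9, 124, 64.2 and 107 CPM, and did not pass (edgeR adjusted p = 0.254).

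**Figure D2:**
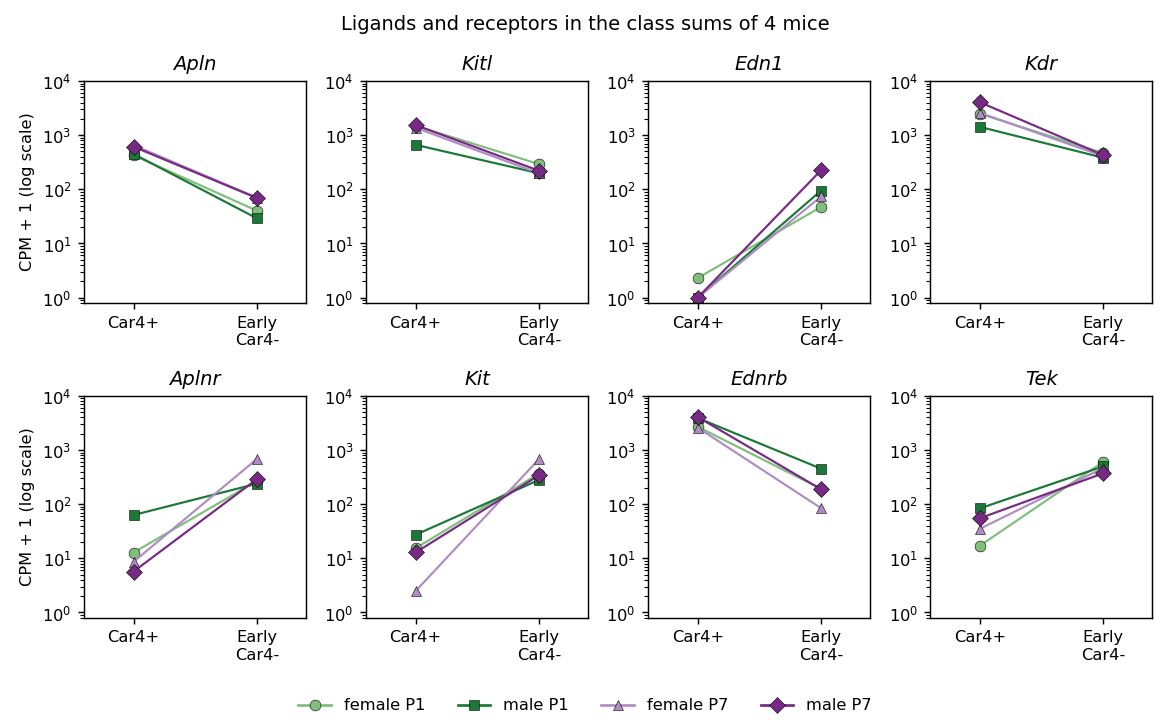
Level of 8 ligand and receptor genes in the class sums of each mouse, as CPM plus 1 on a log scale; each line joins the Car4+ sum and the Early Car4- sum of 1 mouse. Apln, Kitl, Ednrb and Kdr are higher in Car4+ cells, and Aplnr, Kit, Edn1 and Tek in Early cells, in 4 of 4 mice.

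Of the 143 genes, 12 in each direction are named, chosen as those with the largest log2 difference. The choice was made among genes with at least 50 CPM and a read in at least 25% of cells of the higher class. The same direction in 4 of 4 mice was also required of them. On the Car4+ side these were Arhgap6, Rgs6, Chst1, Sirpa, Chst2, Car4, Slc16a9, Tmeff2, Ednrb, Itgb5, Tex14 and Tbx2, with log2 differences from 5.37 (Arhgap6) down to 4.01 (Tbx2). Chst1 and Chst2 code for sulfotransferases that act on sugar chains. Chst1 stood at 302, 224, 326 and 224 CPM in Car4+ cells and at 4.84, 8.63, 4.42 and 23.2 CPM in Early cells. Chst2 stood at 487, 505, 258 and 522 CPM against 15.9, 42.9, 5.42 and 27.4 CPM. Sirpa codes for an inhibitory receptor that binds CD47, and stood at 178, 59.3, 383 and 423 CPM against 7.70, 11.9, 3.77 and 13.8 CPM. Slc16a9, a monocarboxylate transporter gene, stood at 143, 121, 260 and 319 CPM against 10.99, 12.1, 10.8 and 5.49 CPM. All 12 genes were without overlap between the classes, beside 126 of the 143 called genes and 10.5% of all genes tested.

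The depth behind these genes was uneven. Arhgap6 had 23.5% of its reads in Car4+ cells in 1 cell and 50% of them in 4 cells. Rgs6, a regulator of G protein signalling, had 21% in 1 cell and 50% in 4 cells. It took 30 cells to hold 50% of the Ednrb reads and 28 cells for Tbx2. Arhgap6, Rgs6, Sirpa, Tmeff2, Itgb5 and Tex14 each lost their call in 5 or 6 of the 15 alternatives, and Car4 and Ednrb in 0.

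On the Early side the 12 genes were Cxcl12, Fbln2, Cdc42ep4, Glp1r, Wif1, Cd44, Prss23, Edn1, Ltbp1, Col5a2, Itga6 and Gpr182. They were nearly without reads in Car4+ cells, so levels or reads are given for most of them. The fitted log2 differences (between -11.54 for Cxcl12 and -7.09 for Gpr182) depend on how sums of 0 are treated. Cxcl12, a chemokine gene, had 11 reads in all Car4+ cells and 142990 in Early cells, where the sums stood at 161, 190, 520 and 451 CPM. The P7 mice held more than the P1 mice. A Cxcl12 read was found in 39.2% of Early cells, and 9 cells held 50% of the reads. Fbln2, a gene of an elastic fibre protein, had 7 reads against 53236, and stood at 126, 70.0, 160 and 176 CPM in Early cells. Wif1, a secreted Wnt inhibitor gene, had 3 reads against 34256, a ratio of 3064 per read sequenced with a 95% counting interval from 1048 to 14860. Its Early sums held 22.6, 6.43, 143 and 164 CPM, with both P7 mice above both P1 mice.

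Glp1r, the gene of the receptor of glucagon-like peptide 1, had 10 reads in Car4+ cells, all in 1 cell, and stood at 74.9, 41.2, 102 and 59.0 CPM in Early cells. Itga6, a laminin-binding integrin gene, and Gpr182, a receptor gene, were the most widely read of the 12. Itga6 stood at 11.51, 2.61, 0.98 and 0 CPM in Car4+ cells and at 424, 455, 296 and 203 CPM in Early cells, with a read in 89.8% of them. Gpr182 stood at 3.31, 4.61, 1.88 and 0 CPM against 309, 381, 207 and 187 CPM, with a read in 75.7% of Early cells. The other genes (Cdc42ep4, Cd44, Prss23, Ltbp1 and Col5a2) had a read in 27.5% to 51.1% of Early cells. Col5a2, a fibrillar collagen gene, lost its call in 9 of the 15 alternatives, among them the CD31-gate cells alone (edgeR adjusted p = 0.0482 with all cells). Cdc42ep4, Glp1r, Prss23, Edn1 and Ltbp1 each lost it in 5, Cd44 in 4, Wif1 in 3, Itga6 in 2, Gpr182 in 1, and Cxcl12 and Fbln2 in 0.

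**Figure D3:**
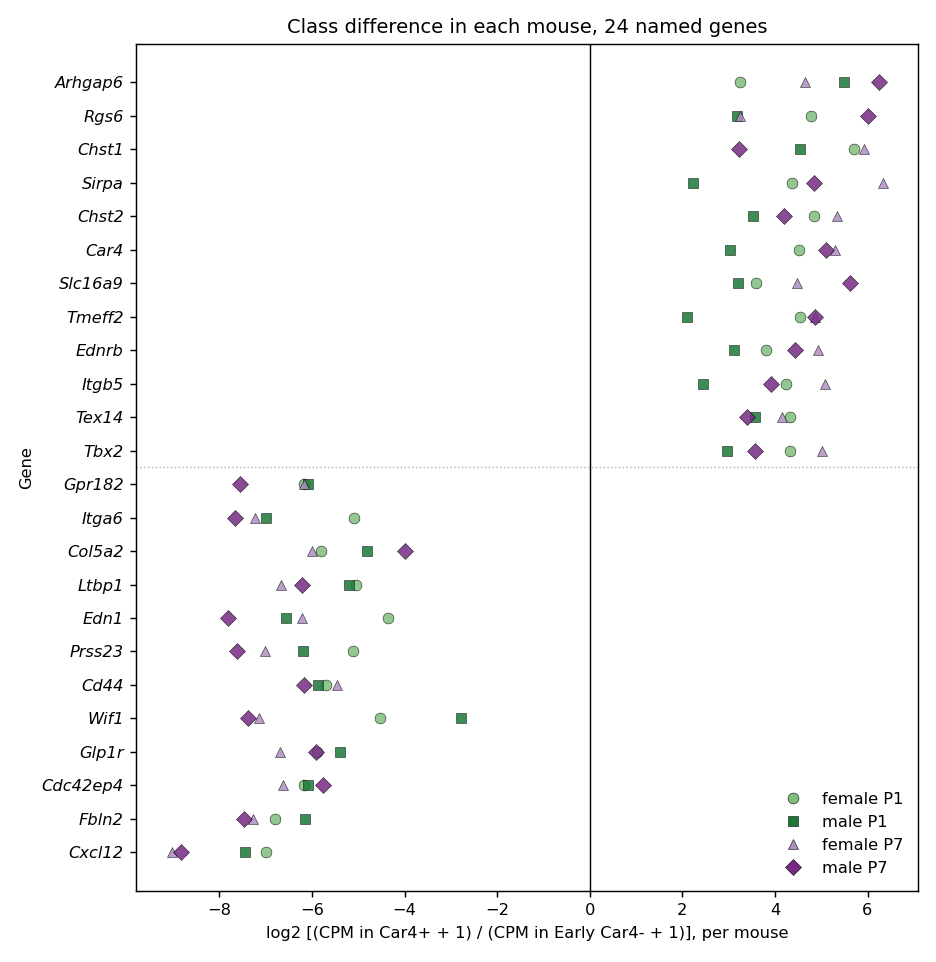
Difference between the classes in each mouse for the 24 genes named by rule, as the log2 ratio of (CPM + 1) in Car4+ over Early Car4- sums; each point is 1 mouse. All points of the 12 upper genes lie right of 0 and all points of the 12 lower genes left of it, which the naming rule required.

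Of 8 tested arterial markers 1 (Cxcl12) was called lower in Car4+ cells and 0 higher, and of 5 tested venous markers 2 (Prss23 and Vwf) were called lower and 0 higher, beside 0.38% of all genes called lower. The median log2 differences were -6.96 (arterial) and -4.35 (venous), and depend on how sums of 0 are treated. An unadjusted edgeR p under 0.05 was found for 7 arterial and 3 venous genes, beside 1577 of all 11833 genes tested. In 4 of 4 mice, 5 arterial and 3 venous genes were lower and 0 higher, beside 17.1% and 9.48% of all genes tested. The summed level of the arterial list ranged from 269 to 564 CPM in Car4+ sums and from 1149 to 2272 CPM in Early sums, and that of the venous list from 9.40 to 41.2 and from 190 to 329 CPM. Vwf, the von Willebrand factor gene, had 3 reads in Car4+ cells and a read in 13.1% of Early cells. Gja4, an arterial connexin gene, had a read in 64% of Early cells and 2.82% of Car4+ cells and stood at 14.9, 0, 0 and 0 CPM against 370, 272, 683 and 909 CPM. It did not pass (edgeR adjusted p = 0.0614). Nr2f2, the venous transcription factor gene, was not called (edgeR adjusted p = 0.327). Both passed in at least 1 of the 15 alternatives. The part of arterial and venous cells in the class differences was not tested.

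Immune and mesenchymal markers were low in both classes, and epithelial and lymphatic markers reached higher sums. The summed level of 11 immune markers was at most 10.2 CPM in Car4+ and 43 CPM in Early sums, that of 11 mesenchymal markers at most 25.8 and 25.9 CPM, and that of 11 epithelial markers at most 319 and 131 CPM. Lyz2, S100a8, Cd79a, Itgam and Tyrobp of the immune list, Dcn of the mesenchymal list and Sftpb, Foxj1 and Cdh1 of the epithelial list had 0 reads in Car4+ cells. Of the epithelial list the alveolar type 1 genes Hopx and Ager had the most reads in Car4+ cells. Hopx stood at 111, 192, 38.8 and 32.9 CPM against 17.5, 34.4, 2.91 and 10.2 CPM (edgeR adjusted p = 0.0701), and Ager at 58.5, 120, 7.38 and 14.97 CPM against 33.4, 38.0, 3.98 and 19.9 CPM (edgeR adjusted p = 0.677). Their part in the class differences was not tested. The lymphatic markers gave 603 to 2197 CPM and 807 to 3026 CPM, mainly Lyve1, which capillary cells also carry, and 0 of 3 tested were called.

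Among 28 tested endothelial transcription factor genes, 3 were called higher and 1 lower, with a median log2 difference of -0.58. Tbx3 stood beside Tbx2, at 732, 521, 488 and 858 CPM against 259, 247, 165 and 283 CPM (log2 difference 1.44, SE 0.21, edgeR adjusted p = 0.0281). Lmo2, a cofactor gene of endothelial and blood development, had a log2 difference of 1.46 (SE 0.23, edgeR adjusted p = 0.0348). Foxp1, a forkhead gene, was lower at 226, 487, 150 and 152 CPM against 1121, 934, 852 and 1034 CPM (log2 difference -2.14, SE 0.34, edgeR adjusted p = 0.0327). Tbx3 and Lmo2 each lost their call in 8 of the 15 alternatives, among them leaving out each of the 4 mice, Foxp1 in 5 and Tbx2 in 1. Epas1, which codes for the hypoxia factor HIF-2 alpha, and Foxf1, a lung mesenchymal and endothelial factor gene, were not called. Epas1 stood at 1144, 1183, 898 and 1098 CPM against 1541, 1305, 1469 and 1268 CPM (edgeR adjusted p = 0.478), and Foxf1 at 1144, 924, 1239 and 1209 CPM against 949, 390, 792 and 1078 CPM (edgeR adjusted p = 0.346).

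Cell surface and matrix genes split by member. Of 26 tested basement membrane and integrin genes 2 were called higher and 1 lower, with a median log2 difference of -0.56, and all 3 were integrins. Itga3 stood at 367, 161, 326 and 957 CPM against 61.0, 36.3, 40.4 and 69.7 CPM, and Itgb5 at 180, 109, 211 and 202 CPM against 8.59, 19.2, 5.25 and 12.5 CPM. Itga6 was the lower one. The basement membrane genes Sparc (edgeR adjusted p = 0.695), Col4a1 (edgeR adjusted p = 0.831) and Col4a2 (edgeR adjusted p = 0.248) were not called. Of 28 tested guidance genes, Sema6a and Nrp1 were called higher and 0 lower, with a median of 0.03. Sema6a, a membrane semaphorin gene, stood at 816, 1302, 691 and 1397 CPM against 270, 343, 190 and 223 CPM. Sema3c, a general capillary marker of that list, was not called (edgeR adjusted p = 0.528).

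In the list of caveolae, carbonic anhydrases and water channels, Car4 was called higher and Cav1 and Car14 lower among 14 tested genes, with a median log2 difference of -0.04. Cav1, the caveolin gene, stood at 640, 514, 1096 and 558 CPM against 1836, 1007, 3258 and 1844 CPM (log2 difference -1.45, SE 0.20, edgeR adjusted p = 0.0217); the groups overlapped, although the difference had 1 sign in 4 of 4 mice. Cavin1, its partner, did not pass (edgeR adjusted p = 0.0579). Car14, another membrane-bound carbonic anhydrase gene, had 5 reads in Car4+ cells, all in 1 cell, and stood at 35.8, 16.7, 71.1 and 41.6 CPM in Early cells. The 2 carbonic anhydrase genes were thus called in opposite directions.

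Of 21 tested BMP and TGF-beta genes, Tgfbr2, a TGF-beta receptor gene, was called higher (255, 201, 399 and 631 CPM against 75.7, 55.7, 172 and 101 CPM) and 0 were called lower, with a median of -0.14. Tgfbr2 lost its call in 7 of the 15 alternatives, among them leaving out each of the 4 mice. Acvrl1, the ALK1 receptor gene, was higher in 4 of 4 mice (edgeR adjusted p = 0.0554), as was Tmem100 (edgeR adjusted p = 0.265). Among 9 tested leukocyte adhesion and chemokine genes, Icam2 was called higher (3067, 7066, 2617 and 4401 CPM against 1149, 2954, 972 and 1221 CPM) and Cxcl12 lower, with a median of 0.75, and Cd34 did not pass (edgeR adjusted p = 0.0567). Among 12 coagulation genes, F2rl3, a thrombin receptor gene, was called higher and Vwf lower, with a median of -0.56. F2rl3 had a read in 13.4% of Car4+ cells, with 48.1% of its reads in 1 cell, and lost its call in 8 of the 15 alternatives, among them limma, the CD31-gate cells and the thinned cells. Thbd, the thrombomodulin gene, was not called (edgeR adjusted p = 0.213). Of 16 tested junction genes only Cldn5 was called, and neither Cdh5 (edgeR adjusted p = 0.215) nor Esam (edgeR adjusted p = 0.384). Of 10 tested lipid handling genes Gpihbp1 alone was called, with a list median of -2.47.

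Other programmes gave no call. With edgeR, 0 of 11 Notch, 0 of 12 proliferation, 0 of 14 immediate early and stress and 0 of 14 glycolysis genes passed. An unadjusted edgeR p under 0.05 was found for 3, 2, 5 and 1 of them, beside 1577 of all 11833 genes tested. The median log2 differences of these lists were -0.14, -2.85, 0.63 and 0.01. The summed level of the proliferation list was 126 to 301 CPM in Car4+ sums and 236 to 545 CPM in Early sums. In 4 of 4 mice, 5 of the 12 proliferation genes and 4 of the 11 Notch genes were lower and 0 of either list higher. Over all genes tested, 17.1% were lower and 9.48% higher in 4 of 4 mice. Of the stress list 4 of 14 genes were higher in 4 of 4 mice and 0 lower, and of the glycolysis list 1 was higher and 3 were lower. The cell cycle inhibitor gene Cdkn1a, on no list and picked after its values were seen, was called higher (log2 difference 2.26, SE 0.24, edgeR adjusted p = 0.00969). It stood at 961, 5545, 1004 and 1351 CPM in Car4+ cells and at 288, 1349, 188 and 186 CPM in Early cells, with MP1 far above the other mice in both classes.

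**Figure D4:**
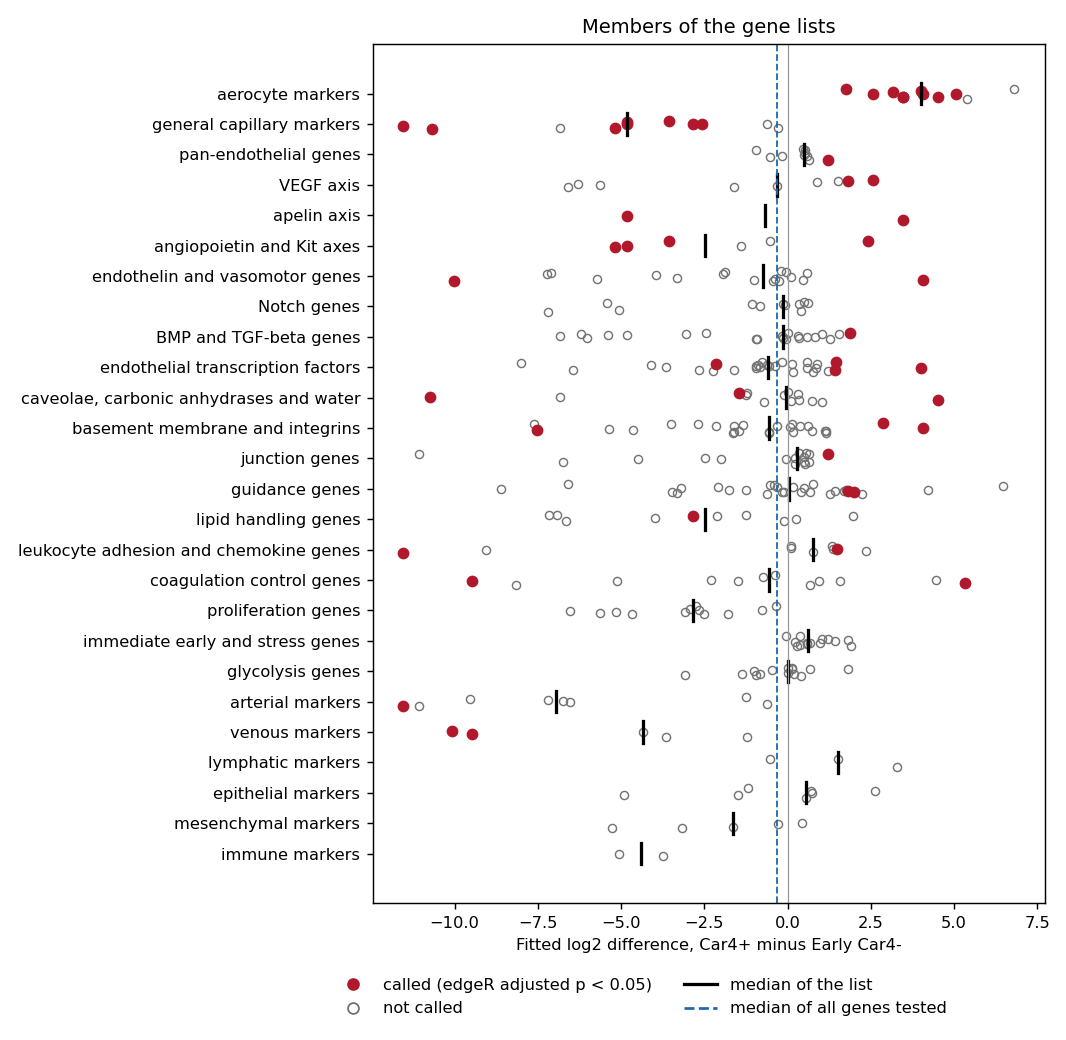
Fitted log2 difference, Car4+ minus Early Car4-, of each tested member of the gene lists (MHC class II, with 1 tested gene, is left out); filled points passed the test, open points did not, black bars are list medians and the dashed line is the median of all genes tested. Aerocyte markers lie right of 0 (median 4.01), general capillary markers left of it (median -4.81), and most other lists straddle the dashed line at -0.33.

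Of the 143 genes, 10 kept their call in each of 15 alternatives, among them leaving out each mouse: Car4, Ednrb, Emp2, Pmp22, Igfbp7, Rtn1, Enho, Ptprb, Cxcl12 and Fbln2. Igfbp7, Rtn1 and Enho were on no list and are named for this count after it was seen. Igfbp7, a secreted matrix protein gene, stood at 3830, 5925, 3516 and 8475 CPM against 344, 1097, 266 and 686 CPM. Rtn1, a reticulon gene, stood at 727, 590, 833 and 989 CPM against 44.0, 64.9, 37.2 and 94.9 CPM. Enho, the adropin gene, stood at 311, 808, 306 and 394 CPM against 34.1, 98.4, 16.1 and 35.2 CPM. None of the 3 overlapped between the classes, beside 126 of the 143 called genes without overlap. Of the other called list genes, Cav1 lost its call in 7 of the 15 alternatives, Nrp1 and Cldn5 in 6, Aplnr, Cd93, Prx and Car14 in 5, Kit, Icam2 and Vwf in 4, Tek and Sema6a in 3, Kitl and Chst1 in 2, and Apln, Kdr, Gpihbp1 and Itga3 in 1.

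The 250 bases before the start of the rule-named genes among these 10 are shown (RefSeq, GRCm38.p6), since they are the members whose calls held throughout. A match to the ETS core CCGGAAG (either strand), the site class of many endothelial regulators, is in capitals.
Car4 (chr11:84957504-84957753, plus strand): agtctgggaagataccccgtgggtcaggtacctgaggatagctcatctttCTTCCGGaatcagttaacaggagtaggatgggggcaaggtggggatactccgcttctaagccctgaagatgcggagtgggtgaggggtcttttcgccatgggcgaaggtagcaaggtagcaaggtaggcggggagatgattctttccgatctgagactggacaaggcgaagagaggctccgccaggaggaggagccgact
Ednrb (chr14:103843702-103843951, minus strand): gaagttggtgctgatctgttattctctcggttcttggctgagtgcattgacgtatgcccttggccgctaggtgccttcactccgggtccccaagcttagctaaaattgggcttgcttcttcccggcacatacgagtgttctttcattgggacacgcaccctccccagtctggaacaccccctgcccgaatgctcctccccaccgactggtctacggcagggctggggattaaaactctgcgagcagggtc
Cxcl12 (chr6:117168285-117168534, plus strand): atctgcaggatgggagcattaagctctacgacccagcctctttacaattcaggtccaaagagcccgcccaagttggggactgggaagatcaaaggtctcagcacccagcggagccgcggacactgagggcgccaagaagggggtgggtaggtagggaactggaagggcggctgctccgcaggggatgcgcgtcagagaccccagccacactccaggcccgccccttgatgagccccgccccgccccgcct
Fbln2 (chr6:91212514-91212763, plus strand): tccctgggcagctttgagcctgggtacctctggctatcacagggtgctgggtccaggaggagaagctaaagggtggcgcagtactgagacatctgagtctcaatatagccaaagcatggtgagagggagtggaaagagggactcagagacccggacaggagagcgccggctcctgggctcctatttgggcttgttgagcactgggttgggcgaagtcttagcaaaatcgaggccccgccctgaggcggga

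The Car4 window holds 1 match and the others none. In windows of 300 bases that run past the start, the ETS core was found in 2 of the 19 rule-named genes with a window (Car4 and Tex14) and in 8.86% of all 32851 windows. The T-box half-site GGTGTGA, on either strand, was found in 0 of the 19 and in 3.98% of all windows. The share of G and C in the 4 printed windows ran from 56.4% (Car4) to 64.4% (Cxcl12). A match here is a description of the letters, and no binding was measured.

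The class difference at each age rests on 2 mice. It passed for 13 genes at P1 (0.11%) and for 60 genes at P7 (0.507%), and all 13 were among the 60. No gene passed for a change of the class difference from P1 to P7 (0% of 11833, edgeR), and DESeq2 called 94. An unadjusted edgeR p under 0.05 was found for 267 genes, fewer than a share of 0.05 of the genes tested. The log2 difference of Car4 was 3.78 at P1 and 5.21 at P7 (change 1.43, SE 0.54, edgeR adjusted p = 1), and that of Ednrb was 3.46 and 4.70 (change 1.24, SE 0.44, edgeR adjusted p = 1). That of Kdr was 2.15 at P1 and 2.95 at P7, that of Kitl 2.05 and 2.80, and that of Apln 3.71 and 3.20. None of these changes passed with edgeR.

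The mice kept in hyperoxia share no sample with the comparison. Of the 98 genes called higher in Car4+ cells, 96 were higher in both hyperoxia mice (Stard8 and Aard were not), against 24.1% of all genes tested. Of the 45 genes called lower, 45 were lower in both, against 35.6%. Car4 stood at 4052 and 5910 CPM in Car4+ cells of FP7hyperoxia and MP7hyperoxia and at 243 and 433 CPM in Early cells. Ednrb stood at 1719 and 2332 CPM against 97.2 and 117 CPM. Apln stood at 984 and 839 CPM against 352 and 211 CPM, so the Early cells of both hyperoxia mice lay above those of the 4 mice in normal air (at most 69.3 CPM), with values scaled separately. Aplnr stood at 22.6 and 7.67 CPM against 249 and 230 CPM. Cxcl12 stood at 2.95 and 0 CPM against 141 and 168 CPM. The classes were apart for each of these genes. The labels of these mice carry the same caveat as those in normal air.

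**Figure D5:**
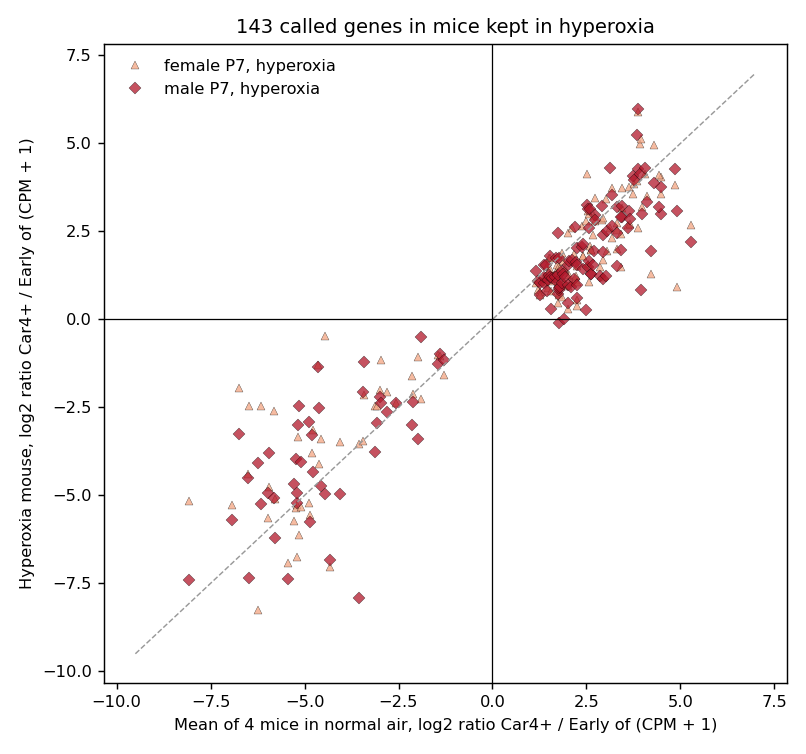
The 143 called genes in the mice kept in hyperoxia: vertical axis, log2 ratio of (CPM + 1) in Car4+ over Early Car4- sums in each of the 2 hyperoxia mice; horizontal axis, the mean of that ratio over the 4 mice in normal air; the dashed line marks equal values. Nearly all points lie in the lower left and upper right, with 96 of 98 and 45 of 45 genes on their own side in both mice.

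The share of Car4+ cells and the depth of the classes differed between mice. Among CD31-gate cells of both classes, 26.7% were Car4+ in FP1 (58 of 217, exact 95% interval 21% to 33.1%), 11.8% in MP1 (16 of 136, 6.88% to 18.4%), 19.2% in FP7 (37 of 193, 13.9% to 25.4%) and 14.1% in MP7 (18 of 128, 8.55% to 21.3%). The mean was 19.3% ± 10.6 at P1 and 16.6% ± 3.61 at P7 (SD, n = 2 mice each). These shares are of sorted cells and depend on the sort, and no test was made. In the hyperoxia mice the shares were 11.4% and 22.7%.

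At equal depth, Car4+ cells did not differ in one direction in the number of genes with a read. The medians of thinned cells were 3273 in Car4+ and 3182 in Early cells of FP1, 1934 and 2243 in MP1, 2217 and 2343 in FP7, and 2956 and 3256 in MP7. The mean difference was -161 genes (SD 188, n = 4), with the lower number in Car4+ cells in 3 of 4 mice (exact sign-flip permutation test, 2-sided, p = 0.25). The difference in the median log2 reads per cell was 0.13 on average (SD 0.22, n = 4, exact sign-flip permutation test, 2-sided, p = 0.25). With 4 mice this test cannot go below p = 0.125.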

How the data were processed

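Plates of sorted single cells from the distal lung of mice gave Tn5-cut cDNA libraries without molecular identifiers, per the labels' protocols. The authors deposited raw read counts per gene and cell, and STAR 2.5.2b and HTSeq 0.10 are named in the submitters' processing notes. These notes name GRCh38, a human build, for mouse cells, so the build behind the counts is uncertain and no gene coordinates are given except those of RefSeq promoter windows. Counts are of 18072 genes, with no mitochondrial or Rps and Rpl symbols.

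Counts were summed per mouse and class. Both sums of a mouse carry the same mouse name in the labels, which pairs them. The correlation of their deviations from the class means was 0.13, 0.16, 0.15 and 0.05. Sums were tested with edgeR 4.0.16 (R 4.3.3) after filterByExpr and TMM scaling, by the quasi-likelihood test with a term for each mouse and Benjamini-Hochberg adjustment over all genes tested. A second fit added the change of the class difference from P1 to P7. The scripts were tested on simulated data. Alternatives used DESeq2 1.42.0, limma 3.58.1 on log2 mean CPM over cells, other scaling and filters, subsets of cells, and mice left out. Equal numbers of cells per class and thinned cells each came from a single random draw. Nothing in the labels says whether a mouse name is 1 animal, so p-values measure the spread between these mouse names.

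For shares of cells with a read, each cell was thinned to 50000 reads. Exact intervals (Clopper-Pearson, 95%) and the counting interval of a ratio cover counting error only, since reads of 1 molecule are not independent. Doublets were not called anew, and the deposited subtype labels were used as given.

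Named genes are the 12 per direction with the largest log2 difference among called genes with at least 50 CPM and a read in at least 25% of cells of the higher class, and the same direction in 4 of 4 mice. The classes, lists and tests were chosen with earlier results of these data known. Further list members were named with their values, the called ones after their values were seen, as were Igfbp7, Rtn1, Enho and Cdkn1a, which are on no list.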

Additional observations from a re-analysis of the deposited data

Results flagged for a closer look

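Per-mouse values were screened in 27 groups of 4 mice for a mouse far from the others, by the gap to its neighbour as a share of the range (Dixon's 95% critical value 0.829). Chance passes about 1 in 20 such groups, and 3 passed here.

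Chst2 in Car4+ cells was far lower in FP7 (258 CPM) than in the other mice (487, 505 and 522 CPM), a gap of 0.867 of the range. Car4 in Car4+ cells was far higher in MP7 (12600 CPM) than in the others (4064, 3963 and 5178 CPM), a gap of 0.859. The median Car4 level of single Car4+ cells was 5228 CPM in MP7 and 3837, 3689 and 4948 CPM in FP1, MP1 and FP7. The TMM factors of the Car4+ sums were 0.744 in MP7 and 1.05, 0.858 and 0.985 in FP1, MP1 and FP7. Levels of sums are divided by these factors, and levels of single cells are not. The part of this scaling in the gap was not tested. The difference in median log2 reads per cell between the classes was 0.45 in FP1 and -0.02, 0.03 and 0.05 in MP1, FP7 and MP7, a gap of 0.849.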

How the results depend on the processing

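The count of 143 genes became 1427 with DESeq2, 833 with limma, 258 in CD31-gate cells alone, 515 with cells thinned to 50000 reads, 36 with equal numbers of cells per class and 254 without the 5% of cells with the most reads. It was 145 with RLE scaling, 167 with no filter on low counts, 178 with no replicate block, 112 in the P1 mice alone and 130 in the P7 mice alone, and 16 to 88 without each mouse in turn (16 without FP7, 88 without MP1). Of the 143 calls, 15 held without each mouse in turn, and 10 in each of the 15 alternatives.

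The 13 genes at P1 became 679 with DESeq2, 93 with no filter, 2 with no replicate block, 145 with limma, 50 in CD31-gate cells, 228 in thinned cells, 0 with equal numbers of cells, 33 without the 5% of cells with the most reads, and 1 to 76 without each mouse (1 without FP1, 76 without MP7). The 60 genes at P7 became 928 with DESeq2, 198 with no filter, 51 with no replicate block, 299 with limma, 113 in CD31-gate cells, 354 in thinned cells, 17 with equal numbers of cells, 100 without the 5% of cells with the most reads, and 53 to 218 without each mouse (53 without MP7, 218 without MP1). A fit without 1 mouse of an age assumes that the lone mouse varies like the others. For the change from P1 to P7, DESeq2 called 94 genes, no filter 2, thinned cells 2, and 0 to 2 passed without each mouse.

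Genes not called in the main fit could pass elsewhere. Fibin, Plvap, Vegfa, Vegfc, Flt1, Flt4, Tie1, Ramp2 and Hopx each passed in at least 1 of the 15 alternatives. So did Ece1, Calcrl, Epas1, Acvrl1, Cavin1, Cd34, Gja4, Nr2f2 and Lyve1. Rprml, Hpgd, Sema3c, Egfl7, Pecam1, Angpt2, Tmem100, Foxf1, Sparc, Col4a1, Col4a2, Thbd, Cdh5, Esam and Ager passed in none. Among genes that were not called, the log2 difference of Angpt2 turned to 0.17 with equal numbers of cells, that of Sparc to 0.18 in the P1 mice alone, and that of Col4a1 ran from -0.076 to 0.26 without each mouse. As means over mice, the share of Car4+ cells with a Gpihbp1 read was 37.9% thinned and 41.2% unthinned, and with an Aplnr read 7.54% and 16.3%. The cause of these shifts was not tested. Over all endothelial cells of the CD31 gate, a larger denominator, the Car4+ share was 12.65% at P1 and 10.3% at P7.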
